A study of Homo sapiens with 16 samples.

Results

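The M452I allele of PCSK5 was compared with the wildtype allele (WT) across all genes of the deposited count table, with the 4 M452I wells set against the 4 WT wells, which are 8 of the 16 libraries of the series. The wells were chosen by their labels alone. The line used, MCF10DCIS.com, is a human breast epithelial line that models ductal carcinoma in situ, and all cells came from 1 PCSK5-/- clone made with Cas9 and a guide against exon 4. Into that clone a guide-resistant, V5-tagged PCSK5 allele on a tetracycline-regulated pSLIK vector was introduced, and hygromycin selection gave 1 polyclonal line per allele. The cells grew in 3 dimensions on matrigel with 5 ng/ml EGF and 2% matrigel in the medium, 5000 cells per well. Doxycycline at 1 μg/ml induced the allele from day 4 and RNA was taken on day 8, without added GDF11 in any of these 8 wells. The other 8 libraries carry a second mutant allele, T288P, either untreated or with 250 ng/ml GDF11. The 4 replicates of an allele are wells of 1 line, so the p-values measure the spread between wells, which may be technical, and an effect of the allele cannot be told apart from a difference between the 2 lines.

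PCSK5 is a proprotein convertase of the secretory pathway, a subtilisin-like protease that cuts secreted precursors after basic residues. Among its substrates is the precursor of GDF11, a TGF-beta family ligand. Mature GDF11 binds activin-type receptors, which phosphorylate SMAD2 and SMAD3, and these enter the nucleus with SMAD4 to regulate transcription.

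The allele names give the residue that was changed, and the unmutated coding sequence around each is shown to place them. On GRCh38 with GENCODE 29, the codon changed in M452I lies in exon 11 of PCSK5 at chr9:76157086-76157088 and that changed in T288P in exon 7 at chr9:76071866-76071868, both on the plus strand and identical in the 3 coding transcripts examined. The capitals mark the codon of the residue, ATG for the methionine and ACC for the threonine, with 30 bases on either side.
PCSK5 around the M452I residue: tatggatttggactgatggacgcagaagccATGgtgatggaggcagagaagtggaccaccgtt
PCSK5 around the T288P residue: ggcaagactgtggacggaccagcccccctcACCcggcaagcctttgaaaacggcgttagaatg
These are reference sequences, since the deposited table holds counts per gene and not the sequence of the introduced alleles.

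One well stood apart on several measures before any test. M452I replicate 4 scored 74.6 on the first principal component of the 8 wells (27.4% of the variance), against -39.2 to 29.8 for the other 7. On the second component (14.9%) M452I replicate 1 was furthest out, at 56.1. Replicate 4 was at 27.7 there and the remaining wells at -23.7 to -2.01. The log2 CPM of replicate 4 correlated with those of the other wells at 0.958 to 0.971, and the remaining pairs at 0.968 to 0.978. Cytosolic ribosomal protein genes took 7.96% of its counts, against 10.8% to 11.1% in M452I replicates 1 to 3 and 8.66% to 10.0% in WT. Mitochondrially encoded genes made up 3.98% of that library, against 2.68% to 2.86% in M452I replicates 1 to 3 and 3.18% to 3.44% in WT. Its library was also the smallest of the 8, at 29.7 M counts, while the others reached 50.8 M. Each comparison is therefore given with all wells and without M452I replicate 4.

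The cells matched their labelled type. Levels are counts per M counts of a library (CPM), scaled by library composition. The epithelial marker EPCAM was at 126 to 140 CPM in WT and 114 to 139 CPM in M452I, and the basal keratin KRT5 at 1848 to 2118 CPM in WT and 2213 to 2372 CPM in M452I. Of the markers of other cells, 6 of 10 fibroblast genes (PDGFRA and COL3A1 among them) had no count in any of the 8 wells, and the T cell gene CD3E had none either. COL1A1 and FAP were the fibroblast genes that reached 1 CPM in any well, and the summed level of that list was 9.35 to 11.4 CPM in WT and 7.63 to 15.3 CPM in M452I, highest in replicate 4. CD68 was the single immune marker of 11 at or above 1 CPM in any well, and the summed level of the immune list was 147 to 213 CPM in WT and 118 to 231 CPM in M452I, lowest in replicate 4. The 7 endothelial markers together reached 1.37 CPM at most.

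PCSK5 itself (ENSG00000099139, chromosome 9, 75890644 to 76362339) was transcribed in every well. WT replicates 1 to 4 had 53.3, 37.3, 57.9 and 33.1 CPM, and M452I replicates 1 to 4 had 26.1, 39.4, 25.6 and 66.8 CPM. The groups overlapped, with M452I replicate 4 the highest of the 8 wells and replicates 1 and 3 the lowest. The log2 fold change was -0.20 ± 0.33 (SE; edgeR adjusted p = 0.925), and without M452I replicate 4 it was -0.58 ± 0.32 (edgeR adjusted p = 0.386). The 3 wells highest in PCSK5 (M452I replicate 4, WT replicates 3 and 1) were the 3 with the lowest share of ribosomal protein counts, at 7.96%, 8.66% and 8.68%. With that share as a covariate the fitted log2 fold change was 0.20 ± 0.16 (edgeR adjusted p = 0.613). The deposited counts do not separate transcripts of the introduced allele from those of the edited locus. GDF11, the ligand whose precursor PCSK5 cleaves, was at 4.10 to 8.03 CPM in WT and 4.43 to 6.82 CPM in M452I, at a log2 fold change of -0.02 ± 0.20 (edgeR adjusted p = 0.993). Its exons share 390 bases with a tested gene on the opposite strand, and the strand setting of the counting is not given in the sources used here.

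With all wells, edgeR called 4 of 16790 genes (0.0238%) at an adjusted p under 0.05. TGFBI and IL1B rose and PADI2 and SMPD4BP fell in M452I. An unadjusted p under 0.05 was reached by 1058 genes (6.3%), 538 higher and 520 lower. Without a test, the 4 M452I wells lay wholly above the 4 WT wells for 299 genes (1.78%) and wholly below for 388 (2.31%).

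**Figure D1:**
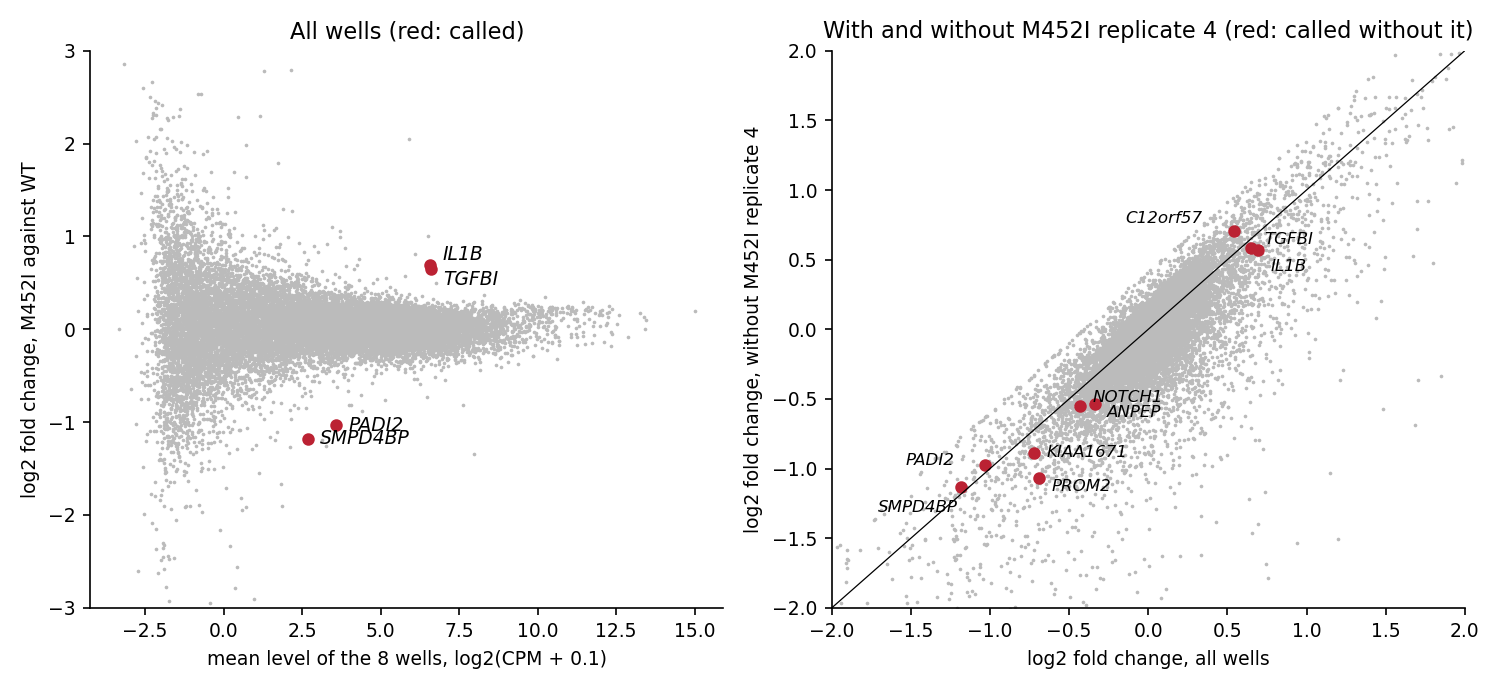
Left: log2 fold change of M452I against WT for each gene tested, over the mean level of the 8 wells as log2(CPM + 0.1), with the 4 called genes in red. Right: the log2 fold change with all wells (x axis) against that without M452I replicate 4 (y axis), with the 9 genes called without that well in red and the line of equality. Genes beyond the axes are not drawn. TGFBI, IL1B, PADI2 and SMPD4BP are red in both panels.

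TGFBI (ENSG00000120708, chromosome 5, 136028895 to 136063818) encodes a secreted matrix protein that TGF-beta induces in many cells. WT replicates 1 to 4 had 80.8, 69.2, 79.1 and 73.9 CPM, and M452I replicates 1 to 4 had 104, 112, 123 and 136 CPM. All 4 M452I wells were above all 4 WT wells, with replicate 4 the highest. The level was 1.57-fold higher, a log2 fold change of 0.65 ± 0.09 (SE; edgeR adjusted p = 0.00505), and 0.58 ± 0.08 without M452I replicate 4 (edgeR adjusted p = 0.00639).

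IL1B (ENSG00000125538, chromosome 2, 112829751 to 112836903), the inflammatory cytokine interleukin-1 beta, had 69.9, 65.0, 81.5 and 71.8 CPM in WT and 102, 104, 115 and 146 CPM in M452I. The groups did not overlap, and replicate 4 was again the highest. The log2 fold change was 0.70 ± 0.12, and its adjusted p stood at the threshold (edgeR adjusted p = 0.04999). Without M452I replicate 4 it was 0.57 ± 0.10 (edgeR adjusted p = 0.0300). The call was lost when any of 6 other wells was left out, M452I replicates 1, 2 and 3 and WT replicates 1, 2 and 4, with adjusted p of 0.0509 to 0.321.

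PADI2 (ENSG00000117115, chromosome 1, 17066761 to 17119435) encodes a peptidylarginine deiminase, an enzyme that converts arginine in proteins to citrulline. WT wells had 13.2, 18.8, 15.2 and 16.1 CPM and M452I wells 8.31, 8.70, 7.21 and 6.76 CPM. Every M452I well was below every WT well. The level was 2.04-fold lower, a log2 fold change of -1.03 ± 0.14 (edgeR adjusted p = 0.00505), and -0.97 ± 0.15 without M452I replicate 4 (edgeR adjusted p = 0.0118). The call was lost without WT replicate 2, the WT well highest in PADI2, where the adjusted p was 0.0602. TGFBI also lost its call without that well (edgeR adjusted p = 0.0633) and without WT replicate 4 (0.0518).

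PADI1, the neighbouring member of the family (ENSG00000142623, chromosome 1, 17205126 to 17246005), had 4.96, 6.31, 5.20 and 6.47 CPM in WT and 2.83, 4.06, 2.72 and 2.14 CPM in M452I. These groups did not overlap either. Its log2 fold change of -0.96 ± 0.21 did not pass the test (edgeR adjusted p = 0.333). In a fit of the 4 WT wells and M452I replicates 1 to 3 alone, PADI1 was called lower (edgeR adjusted p = 0.0296), as were 1.88% of all genes. PADI1 and PADI2 were the 2 of the 5 family members with enough counts to be tested. PADI2 was itself called in this test, so a summary of the 2 would repeat that call.

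SMPD4BP (ENSG00000293311), an entry for a gene copied from SMPD4, had 6.62, 9.54, 10.2 and 8.71 CPM in WT and 3.39, 4.95, 3.64 and 3.47 CPM in M452I, a log2 fold change of -1.18 ± 0.15 (edgeR adjusted p = 0.00505). A separate entry of the same symbol (ENSG00000152117) ran the other way, with 0.803, 0, 0 and 0.260 CPM in WT and 4.42, 1.19, 3.36 and 6.36 CPM in M452I. Counts at the first entry summed to 1318 in WT and 555 in M452I, and at the second to 36 and 532. How reads were divided between the entries is not known, so the direction for this gene is uncertain.

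The 250 bases upstream of the RefSeq starts of the 3 protein-coding called genes are shown because these are the protein-coding genes that edgeR called with all wells (RefSeq on GRCh38.p14, printed along the gene's strand). TGFBI lies at chr5:136028738-136028987 on the plus strand, IL1B at chr2:112836780-112837029 and PADI2 at chr1:17119452-17119701, both on the minus strand. Capitals mark the GC box GGGCGG, searched on both strands.
TGFBI: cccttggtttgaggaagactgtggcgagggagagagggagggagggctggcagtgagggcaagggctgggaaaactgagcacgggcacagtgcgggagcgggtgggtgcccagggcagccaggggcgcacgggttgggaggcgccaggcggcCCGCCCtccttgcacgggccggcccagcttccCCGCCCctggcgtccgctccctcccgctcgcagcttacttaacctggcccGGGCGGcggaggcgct
IL1B: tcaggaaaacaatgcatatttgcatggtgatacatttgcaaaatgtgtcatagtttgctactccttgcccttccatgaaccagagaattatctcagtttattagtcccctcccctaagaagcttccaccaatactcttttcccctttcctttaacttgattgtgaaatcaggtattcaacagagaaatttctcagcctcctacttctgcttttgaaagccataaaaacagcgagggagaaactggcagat
PADI2: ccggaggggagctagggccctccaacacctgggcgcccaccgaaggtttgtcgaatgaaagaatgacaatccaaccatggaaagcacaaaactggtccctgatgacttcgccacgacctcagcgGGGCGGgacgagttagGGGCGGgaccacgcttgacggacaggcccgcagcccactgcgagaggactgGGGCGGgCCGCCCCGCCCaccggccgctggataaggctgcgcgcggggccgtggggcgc
The GC box, a motif bound by SP-family factors, occurred in 42.64% of 35116 such windows. TGFBI held 3 and PADI2 held 5, some overlapping, and IL1B held none. Also searched on both strands were the AP-1 motif TGANTCA (6.573% of windows), the SMAD motif CAGAC (38.0%) and the TATA motif TATAAA (10.72%), and no copy of their letters was found in these 3 windows.

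**Figure D2:**
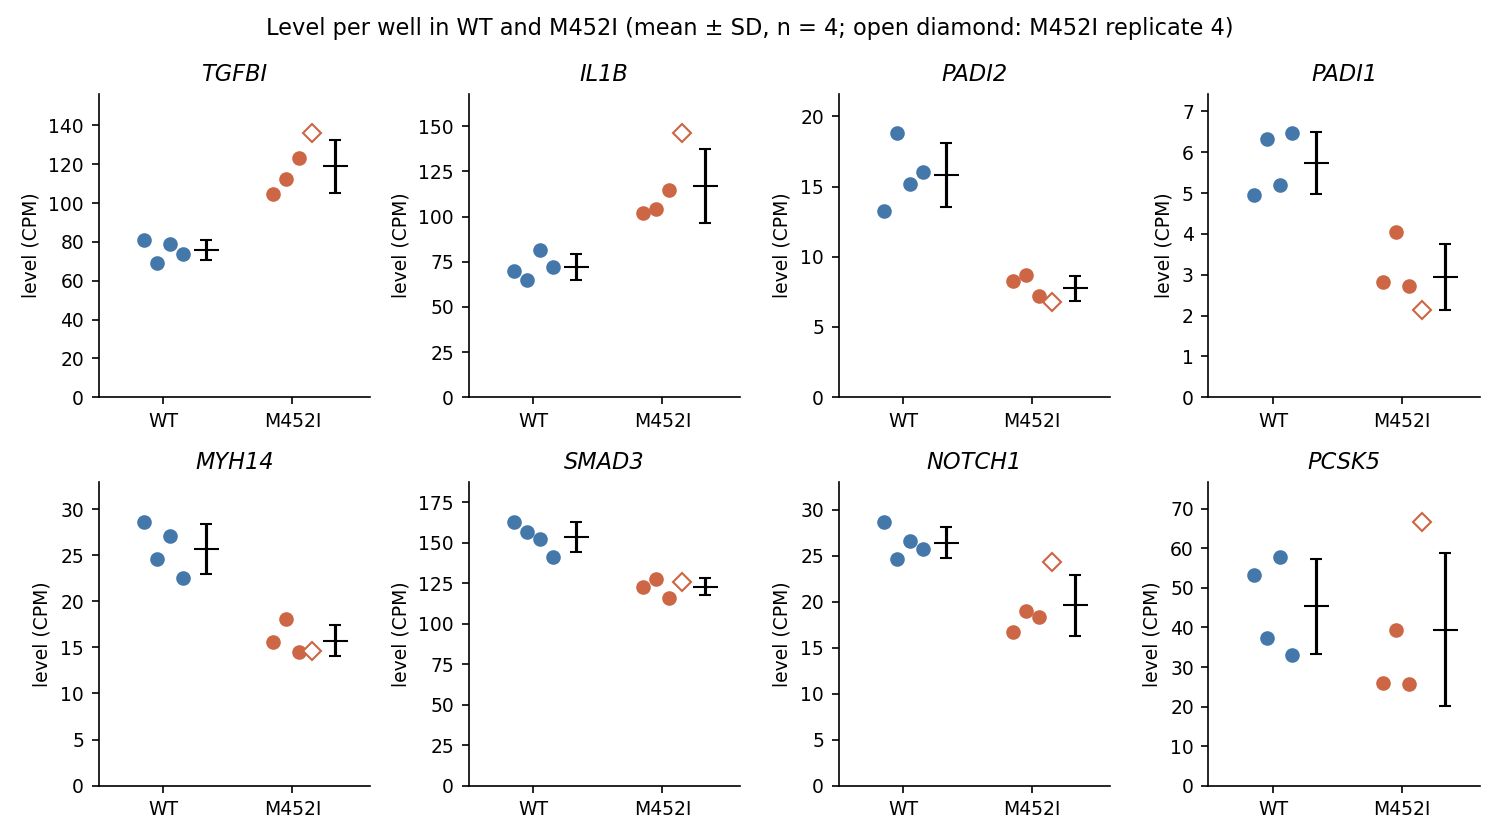
Level in CPM of 8 genes in each WT and M452I well, with mean ± SD (n = 4) and M452I replicate 4 as an open diamond. The groups do not overlap for TGFBI, IL1B, PADI2, PADI1, MYH14, SMAD3 and NOTCH1 and overlap for PCSK5, where replicate 4 is at 66.8 CPM.

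The same wells can be set beside the T288P allele, whose comparison uses the same WT wells, so the results are not independent. In T288P, TGFBI was at 110 ± 9.46 CPM (SD, n = 4; M452I 119 ± 13.7, WT 75.8 ± 5.26) and IL1B at 122 ± 16.4 CPM (M452I 117 ± 20.4, WT 72.0 ± 6.93). PADI2 was at 6.53 ± 1.05 CPM in T288P, 7.74 ± 0.909 in M452I and 15.8 ± 2.31 in WT. These 3 genes were called in T288P against WT too, among 7 genes in all (0.0417%). The rest of the 7 were PADI1, MYH14, PPL and LXN, all lower in T288P (edgeR adjusted p = 0.0386 for each). SMAD3, LIF and NOTCH3, described below, were not called in T288P. Their means there were 124, 40.3 and 11.8 CPM, against 123, 41.5 and 12.1 CPM in M452I and 153, 54.5 and 19.2 CPM in WT. The M452I and T288P lines themselves were compared directly, and edgeR called 1 gene (0.00596%), SMPD4BP at ENSG00000293311, with a log2 fold change of -1.18 ± 0.15 (edgeR adjusted p = 0.00513). For PADI2 the direct difference was 0.24 ± 0.14, for TGFBI 0.12 ± 0.09 and for IL1B -0.06 ± 0.12 (edgeR adjusted p of 1.00 for all 3).

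DESeq2, run on the same 16 libraries, called 30 genes (0.179%), 7 higher and 23 lower (0.0417% and 0.137%), and these included the 4 that edgeR called. It gave an adjusted p to 10278 genes, of which the 30 are 0.292%. In 29 of the 30 the wells did not overlap, against 1.78% (higher) and 2.31% (lower) of all genes. The 30 were called from these same wells, so their separation is no separate evidence. Among the lower genes, SMAD3, the transducer shared by GDF11 and TGF-beta, had 163, 157, 152 and 141 CPM in WT and 123, 128, 116 and 126 CPM in M452I. All M452I wells were lower, replicate 4 included, at a log2 fold change of -0.32 ± 0.07 (edgeR adjusted p = 0.427, DESeq2 adjusted p = 0.0052). The receptor tyrosine kinase gene ERBB2 had 32.4 to 34.7 CPM in WT and 21.2 to 27.4 CPM in M452I (DESeq2 adjusted p = 0.00301; edgeR 0.268). LIF, a cytokine of the interleukin-6 family, had 49.2 to 59.9 CPM in WT and 38.3 to 44.6 CPM in M452I, and the semaphorin receptor gene PLXNA1 had 121 to 147 CPM and 92.9 to 111 CPM (DESeq2 adjusted p = 0.0108 and 0.0052; edgeR 0.427 and 0.375). ERBB2 and LIF share 765 and 267 exon bases with a tested gene on the opposite strand.

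DESeq2 called 1 of 21 genes of the non-muscle myosin and actin list, against 0.179% of all genes. It called none of 11 adherens junction, 9 desmosome and 15 tight junction genes. The called gene, MYH14, a non-muscle myosin heavy chain, had 28.6, 24.6, 27.0 and 22.6 CPM in WT and 15.6, 18.1, 14.5 and 14.6 CPM in M452I. The groups did not overlap, and the log2 fold change was -0.71 ± 0.13 (DESeq2 adjusted p = 7.89e-05; edgeR 0.0744). Periplakin (PPL), a linker of desmosomes and the cornified envelope, had 68.0 to 85.0 CPM in WT and 49.8 to 57.3 CPM in M452I. It was the 1 gene that DESeq2 called of 21 in the cornified envelope and keratinocyte differentiation list, against 0.179% of all genes. Of those 21 genes, 13 had a positive and 8 a negative log2 fold change, and the median was 0.16. Latexin (LXN), a carboxypeptidase inhibitor, had 13.2 to 15.9 CPM in WT and 8.22 to 10.8 CPM in M452I. The DESeq2 adjusted p was 0.0048 for PPL and 0.0021 for LXN, and edgeR gave 0.259 for both. KIAA1671 had 107 to 116 CPM in WT and 51.5 to 89.2 CPM in M452I, with replicate 4 nearest to WT (DESeq2 adjusted p = 0.00183; edgeR 0.240). The remaining lower genes included the transcription factor KLF13, SLMAP and the transporter ABCC3, at log2 fold changes of -0.27, -0.26 and -0.35.

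Higher by DESeq2 were COQ5, an enzyme of ubiquinone synthesis (11.9 to 13.9 CPM in WT, 16.3 to 18.4 in M452I), SERPINB7, an epidermal serine protease inhibitor (4.03 to 5.36 and 5.59 to 9.15), OLAH, a fatty acid thioesterase (7.61 to 10.7 and 12.2 to 16.4), and ASPHD1 (2.59 to 3.17 and 4.08 to 5.25). No group overlapped for these 4, and edgeR gave adjusted p of 0.277, 0.375, 0.476 and 0.427. The DESeq2 adjusted p values were 0.00934, 0.0204, 0.0488 and 0.0306. Other genes whose wells separated without a call by edgeR included the kinetochore gene CENPK, higher at 3.33 to 5.46 CPM against 2.34 to 3.25 (DESeq2 adjusted p = 0.0610), and TNC, a matrix glycoprotein, lower at 1.20 to 2.48 CPM against 2.67 to 4.36. TNFRSF11A, the receptor RANK, was lower at 0.917 to 2.65 CPM against 2.86 to 4.07, with an edgeR adjusted p of 0.727. DESeq2 gave TNC, TNFRSF11A and PADI1 no adjusted p.

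Leaving out M452I replicate 4 changed the count of calls by amounts that differed between fits, which also differed in their wells, the genes tested and the normalization. In the model of the remaining 15 libraries edgeR called 9 of 17278 genes (0.0521%), 3 higher and 6 lower, the 4 above among them. Added were C12orf57 (higher) and KIAA1671, NOTCH1, PROM2 and ANPEP (lower). T288P replicate 1 stood apart from its group on the first principal component of the 16 libraries, at -43.0 against 2.15 to 8.81. When it was left out as well, 640 genes (3.72%) were called, 502 higher and 138 lower. In a fit of the 4 WT wells and M452I replicates 1 to 3 alone, 794 of 15980 genes (4.97%) were called, 494 higher (3.09%) and 300 lower (1.88%). The 640 and the 794 calls shared 538 genes, 84.1% and 67.8% of them. With replicate 4 kept, the fit of the 4 and 4 wells alone called none by edgeR (0.0%), with 879 genes at an unadjusted p under 0.05. With the ribosomal protein share of each library as a covariate and all wells kept, edgeR called 41 genes (0.244%), the first 4 among them. DESeq2 without replicate 4 called 838 genes (4.85%), or 11.1% of the 7563 to which it gave an adjusted p. Of the first 4 it called 2, TGFBI and IL1B, and gave PADI2 and SMPD4BP no adjusted p. Limma-voom with a weight for each library, which gave M452I replicate 4 a weight of 0.198 and the other M452I wells 1.24 to 1.55, called 325 (1.94%). Both of these fits were added after the data were seen.

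The 794 genes differ from WT in 3 wells, and the fourth well mostly did not follow. Of the 494 that were higher in M452I replicates 1 to 3, replicate 4 lay below all WT wells for 418, above all of them for 25 and among them for 51. Of the 300 that were lower, replicate 4 lay above all WT wells for 100, below them for 91 and among them for 109. PROM2, a membrane glycoprotein of cell protrusions, shows the pattern with 6.29 to 8.59 CPM in WT, 3.22, 3.39 and 3.77 CPM in M452I replicates 1 to 3 and 7.69 CPM in replicate 4. Its log2 fold change was -1.07 ± 0.18 without replicate 4 (edgeR adjusted p = 0.0300) and -0.69 ± 0.24 with it (0.739). ANPEP, aminopeptidase N, had 34.7 to 41.7 CPM in WT, 24.6 to 27.2 CPM in replicates 1 to 3 and 41.4 CPM in replicate 4. C12orf57 had 22.3 to 26.9 CPM in WT and 42.8, 37.2, 37.2 and 22.1 CPM in M452I, and it shares 737 exon bases with a tested gene on the opposite strand.

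The TGF-beta family pathway was examined from ligand to target, with lists of genes whose members were counted. None of 10 ligands, 11 receptors and 16 SMADs and inhibitors was called by edgeR with all wells. SMAD3 was the single member at an unadjusted p under 0.05 (6.3% of all genes) and the single one called by DESeq2 (0.179%). The median log2 fold changes were 0.01, -0.13 and -0.06, against 0.03 over all genes. Of the type I receptors used by GDF11, ACVR1B had 18.6 to 22.9 CPM in WT and 15.02 to 21.2 CPM in M452I, and TGFBR1 39.8 to 49.1 and 35.8 to 43.3 CPM. Of 35 tested genes known as SMAD2/3 targets, 1 was called higher and none lower, against 0.0238% of all genes called. The 1 was TGFBI, already among the 4 genes called with all wells, so the count repeats that call. An unadjusted p under 0.05 was reached by 1 higher and 3 lower targets, against 6.3% of all genes. Log2 fold changes were positive for 13 and negative for 22, with a median of -0.09 (-0.17 without M452I replicate 4). The feedback genes SMAD7 and SKIL had log2 fold changes of -0.30 and -0.22 (edgeR adjusted p = 0.830 for both). FN1, a matrix target, had 66.2 to 113 CPM in WT, 51.5 to 59.2 CPM in M452I replicates 1 to 3 and 99.0 CPM in replicate 4. In the fit of 4 WT and 3 M452I wells, SMAD3 was called lower (log2 fold change -0.35, edgeR adjusted p = 0.0197), and of the 35 targets TGFBI was called higher and 2 were called lower, THBS1 among them (-0.69, 0.0301), against 3.09% and 1.88% of all genes. THBS1 was at 135 to 176 CPM in those 3 wells, 221 to 311 CPM in WT and 628 CPM in replicate 4. INHBA, the activin A subunit, was at 341 to 352 CPM in replicates 1 to 3, 316 to 456 CPM in WT and 665 CPM in replicate 4.

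Other convertases that could act beside PCSK5 showed no call. Of 6 tested, none had an unadjusted edgeR p under 0.05 or a DESeq2 call, 5 had a negative log2 fold change, and the median was -0.17. FURIN, the best known of the family, had 33.5 to 44.0 CPM in WT and 30.9 to 38.9 CPM in M452I, and MBTPS1 37.8 to 39.6 and 31.5 to 38.8 CPM.

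Within the interleukin-1 family, IL1B was the 1 call among 10 tested genes, against 0.0238% of all genes. It was already among the 4 genes called with all wells, so the count repeats that call. The median was 0.19 with all wells, 0.15 without M452I replicate 4 and 0.09 in the 2 groups without it (9 genes tested). A positive log2 fold change was found in 8 of the 10, against 9297 of the 16790 genes tested. IL1A, the related cytokine, had 481 to 638 CPM in WT and 610 to 669 CPM in M452I (log2 fold change 0.19, edgeR adjusted p = 0.807). IL33 had 21.5 to 27.6 CPM in WT, 26.9 to 30.1 CPM in M452I replicates 1 to 3 and 44.2 CPM in replicate 4. IL18 had 633 to 748 CPM in WT and 931 to 946 CPM in those 3 wells, where it was called higher in the fit without replicate 4 of the 2 groups (log2 fold change 0.39, edgeR adjusted p = 0.0163), and 617 CPM in replicate 4. None of 17 feedback and inflammatory targets of NF-kB was called by edgeR, and the median was -0.01. An unadjusted p under 0.05 was reached by 3, against 6.3% of all genes. DESeq2 called 1 (LIF, lower), against 0.137% of all genes.

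The Notch pathway passes signals between neighbouring cells through receptors that are cleaved on contact with a ligand. With all wells, 11 of 12 tested Notch genes had a negative log2 fold change, with a median of -0.25 against 0.03 over all genes. None was called by edgeR, and 3 had an unadjusted p under 0.05, against 6.3% of all genes. DESeq2 called 2 lower, the receptors NOTCH1 and NOTCH3, against 0.137% of all genes. NOTCH1 had 28.7, 24.7, 26.6 and 25.7 CPM in WT and 16.8, 19.0, 18.3 and 24.3 CPM in M452I. The M452I wells were all lower, with replicate 4 just under the lowest WT well. Without M452I replicate 4, NOTCH1 was called by edgeR (log2 fold change -0.55 ± 0.09, adjusted p = 0.0300). In the fit of 4 WT and 3 M452I wells, 4 of 10 Notch genes were called lower against 1.88% of all genes: NOTCH1, NOTCH2, NOTCH3 and the ligand JAG1, at log2 fold changes of -0.57, -0.46, -0.76 and -0.45. Replicate 4 had 34.2 CPM of JAG1, above the 29.9 to 33.3 CPM of WT, and 125 CPM of NOTCH2, within the 117 to 141 CPM of WT. NOTCH1 and NOTCH3 are long, at 10377 and 9394 exon bases, while the list has a median of 4907.5. Of 2782 protein-coding genes with 8000 or more exon bases, the same fit called 204 lower. The part of length was not tested.

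Of the 11 EGF receptor ligands and ERBB receptors tested, none was called by edgeR with all wells, and the median was 0.02. An unadjusted p under 0.05 was reached by 3, against 6.3% of all genes. DESeq2 called ERBB2 lower, against 0.137% of all genes. Without replicate 4, the fit of the 2 groups called 3 of the 11 lower, against 1.88% of all genes: ERBB2, ERBB3 and the ligand EREG, at -0.50, -0.31 and -0.39. EREG had 201 to 266 CPM in WT and 162 to 192 CPM in all 4 M452I wells, and ERBB3 60.9 to 71.3 and 51.1 to 56.7 CPM. These 3 genes were lower in replicate 4 as well. ERBB2 has 10321 exon bases and EREG 5717. Of 2782 protein-coding genes with 8000 or more exon bases, the fit without replicate 4 of the 2 groups called 204 lower. The part of length was not tested.

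All 11 adherens junction genes had negative log2 fold changes, with a median of -0.11 and no call by edgeR or DESeq2. An unadjusted p under 0.05 was reached by 2, against 6.3% of all genes. E-cadherin (CDH1) had 383 to 458 CPM in WT and 313 to 375 CPM in M452I, without overlap (log2 fold change -0.26, edgeR adjusted p = 0.727). The desmosome gene DSP had 923 to 1096 CPM in WT and 787 to 899 CPM in M452I, and the myosin gene MYH9 had 600.3 to 643 and 494 to 526 CPM. In the fit of 4 WT and 3 M452I wells, in which 1.88% of all genes were called lower and 3.09% higher, DSP and the junction scaffold gene AFDN were called lower, at -0.31 and -0.28. Of 21 genes of non-muscle myosin and actin, that fit called 2 lower, MYH9 (-0.28) and MYH14 (-0.70), and 3 higher, the myosin light chain genes MYL6 (0.38), MYL12A (0.33) and MYL12B (0.32). MYL6 had 738 to 973 CPM in WT, 1103 to 1133 CPM in M452I replicates 1 to 3 and 621 CPM in replicate 4. Of 20 basement membrane and matrix genes, 3 were called lower in that fit (1.88% of all genes), with a median of -0.27 against -0.02 over all genes, LAMA5 and AGRN among them. The matrix list holds long genes, with a median of 9220.0 exon bases, and of the 2782 protein-coding genes with 8000 or more the same fit called 204 lower. DSP, AFDN, MYH9 and MYH14 are of that length too, at 10093, 13720, 9012 and 10392 exon bases. LAMA5 had 53.1 to 64.7 CPM in WT, 41.6 to 45.0 CPM in M452I replicates 1 to 3 and 57.4 CPM in replicate 4. Of 15 YAP targets, 4 were called lower in that fit (1.88% of all genes), among them CRIM1 (-0.53), which had 71.2 CPM in replicate 4 and 53.01 to 68.1 CPM in WT.

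Basal and luminal identity genes were not called by edgeR or DESeq2 with all wells among 17 and 12 tested. An unadjusted p under 0.05 was reached by 2 basal genes, against 6.3% of all genes. KRT14, a basal keratin, had 53.8 to 82.5 CPM in WT and 81.7 to 96.8 CPM in M452I. Replicate 4 was the highest of the 8 wells for 8 of the 17 basal genes and the lowest for 7. TP63, the basal transcription factor, was at 47.5 CPM there, against 14.9 to 25.4 CPM in WT and 15.4 to 17.5 CPM in M452I replicates 1 to 3. The keratin gene KRT6A went below the other wells, at 2711 CPM against 2807 to 2973 CPM in WT and 3318 to 3626 CPM in M452I replicates 1 to 3, and KRT6B, KRT16 and KRT17 were also lowest there, at 1700.4, 266 and 2466 CPM. The fit of 4 WT and 3 M452I wells called 2 basal genes higher, KRT6A and KRT6B (log2 fold changes 0.26 and 0.24, edgeR adjusted p = 0.0312 and 0.0409), against 3.09% of all genes. Of the 12 luminal genes replicate 4 was the lowest well for 7 and the highest for 1. KRT8, a luminal keratin, was at 277 CPM there, against 558 to 823 CPM in WT and 667 to 742 CPM in M452I replicates 1 to 3. How often replicate 4 was the highest or lowest well over all genes was not counted. The basal and luminal counts therefore cannot be told apart from the general distance of that well. Cell division genes were not called by either tool with all wells. Of 24 G2/M genes, 3 had an unadjusted p under 0.05, against 6.3% of all genes. Negative log2 fold changes were found in 22 of the 24, and the median was -0.11. MKI67, which marks cycling cells, had 64.3 to 82.3 CPM in WT, 49.6 to 52.4 CPM in M452I replicates 1 to 3 and 67.1 CPM in replicate 4. TOP2A had 147 to 164 CPM in WT and 123 to 138 CPM in M452I.

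In the lists of protein synthesis and respiration, M452I replicates 1 to 3 and replicate 4 lay on opposite sides of the WT wells. All 63 cytosolic ribosomal protein genes had a positive log2 fold change with all wells, with a median of 0.21. None was called by edgeR or DESeq2, and none had an unadjusted p under 0.05. Relative to the WT mean, their median log2 level was 0.38, 0.37 and 0.38 in M452I replicates 1 to 3, -0.44 in replicate 4 and -0.14 to 0.15 in WT. In the fit of 4 WT and 3 M452I wells, 62 of 63 were called higher, against 3.09% of all genes, with a median of 0.36. RPS14 had 2245 to 2790.0 CPM in WT, 3379.5 to 3569 CPM in replicates 1 to 3 and 1921 CPM in replicate 4. Of 48 nuclear genes of oxidative phosphorylation, 1 had an unadjusted p under 0.05 with all wells, against 6.3% of all genes. A positive log2 fold change was found in 47 of the 48, and none was called by edgeR or DESeq2. Their median level was 0.27, 0.25 and 0.35 in replicates 1 to 3 and -0.32 in replicate 4, and 18 were called higher in the fit of 4 WT and 3 M452I wells (3.09% of all genes). NDUFS5, a complex I subunit, had 85.1 to 107 CPM in WT, 121 to 129 CPM in those wells and 85.5 CPM in replicate 4. Of the 13 mitochondrially encoded genes, 10 had a negative log2 fold change with all wells and none was called by edgeR or DESeq2. Of these, 4 were called lower in the fit of 4 WT and 3 M452I wells, against 1.88% of all genes, with a median of -0.18. MT-ND6 had 216 to 251 CPM in WT, 180 to 186 CPM in replicates 1 to 3 and 257 CPM in replicate 4.

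**Figure D3:**
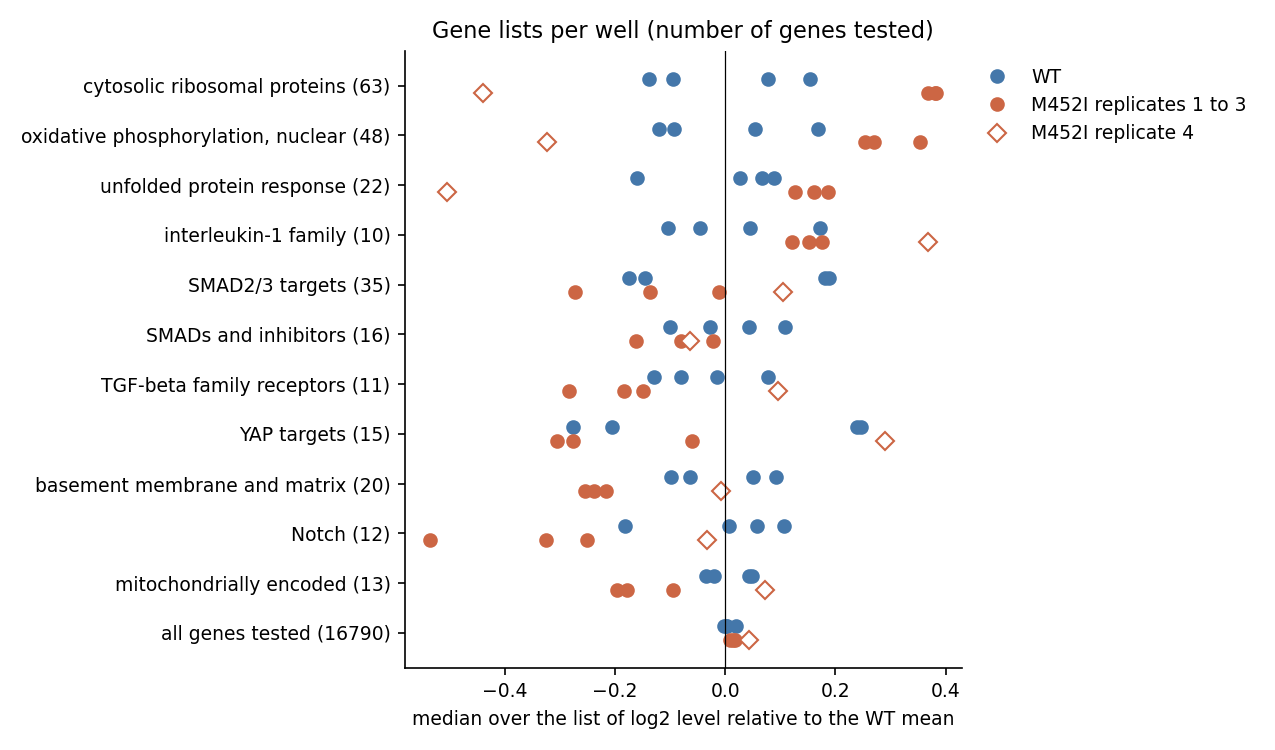
Median over each gene list of the log2 level relative to the WT mean, 1 point per well (blue WT, orange M452I replicates 1 to 3, open diamond M452I replicate 4). The number of genes tested stands in brackets. For cytosolic ribosomal proteins, M452I replicates 1 to 3 lie at 0.37 to 0.38 and replicate 4 at -0.44, with WT between.

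Gene length moved with the same division of wells. Among 151 protein-coding genes with under 1000 exon bases the median log2 level relative to WT was 0.25, 0.32 and 0.36 in M452I replicates 1 to 3 and -0.21 in replicate 4. Among 2782 genes with 8000 or more it was -0.11, -0.11 and -0.14 in those wells and 0.10 in replicate 4. WT wells spread from -0.06 to 0.15 in the shortest class and from -0.07 to 0.05 in the longest. In the fit of 4 WT and 3 M452I wells, 25 of the 151 shortest genes were called higher and 2 lower. Of the 2782 longest, 23 were called higher and 204 lower. Over all genes that fit called 3.09% higher and 1.88% lower. SMAD3, called lower there, has 9113 exon bases. Exon bases count every annotated exon of a gene once, and their median was 5094 over protein-coding genes, 3002 for the ribosomal protein list, 2709.5 for the respiration list and 9220.0 for the matrix list. The mitochondrially encoded list was short, at a median of 784 bases, and its median log2 fold change was negative. The part of length in these results was not tested.

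**Figure D4:**
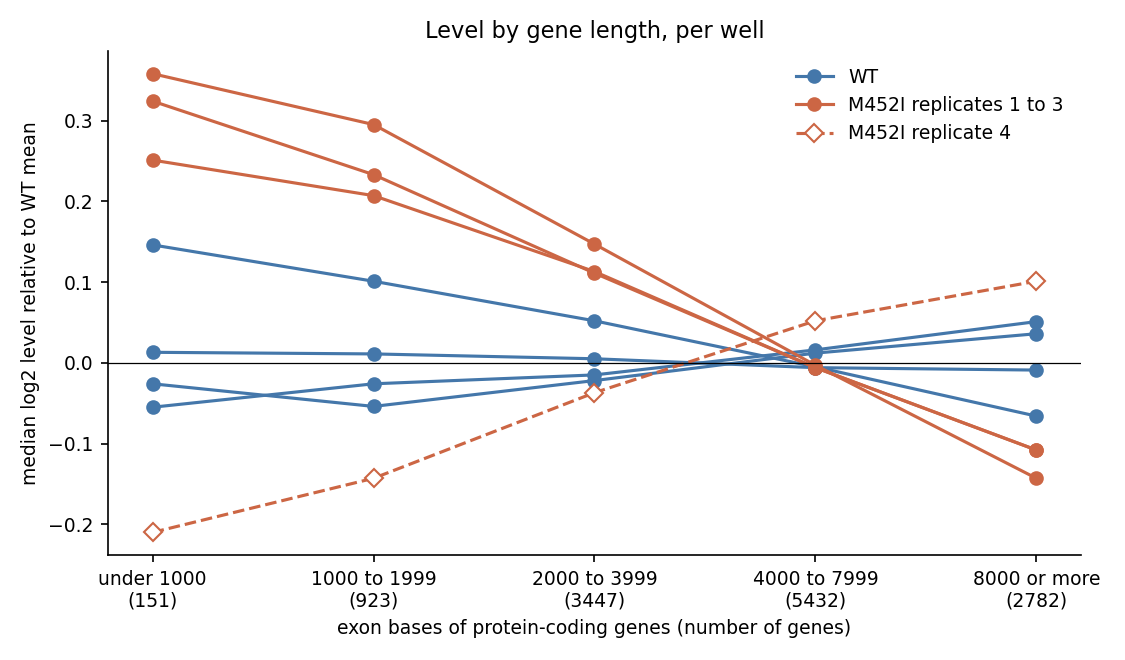
Median log2 level relative to the WT mean in 5 classes of exon bases of protein-coding genes (number of genes in brackets), 1 line per well. M452I replicates 1 to 3 run downward from 0.25 to 0.36 in the shortest class, M452I replicate 4 upward from -0.21, and the WT wells lie between.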

How the data were processed

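Poly(A)-selected RNA was sequenced as read pairs of 150 bases in 16 libraries, 8 of them used for the comparison. The deposited values are whole-number counts per gene, as made by the authors and not normalized. HISAT2 (version not given) and StringTie 2.2.1 with build GRCh38 are named in the submitters' processing notes. Neither the counting step nor its annotation release or strand setting is given in the sources used here. Single and double counts were of like frequency, so both mates of a pair may have been counted. Totals were 29.7 to 50.8 M counts in the 8 wells. The table held 78894 genes, and 0 columns were left unused.

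Tests ran in R 4.3.3 with edgeR 4.0.16: TMM normalization, filterByExpr (minimum count 10), robust dispersions and the quasi-likelihood F test, with 1 model of all 16 libraries and 4 groups, so that the groups shared 1 estimate of the spread. Benjamini-Hochberg adjustment ran over the 16790 genes tested, and calls were made at 0.05. The SE was derived from the log2 fold change and F. CPM were scaled with the TMM factors. Coordinates and exon lengths are from GENCODE 29, which covered 93.1% of genes tested. Alternatives were DESeq2 1.42.0, limma-voom (limma 3.58.1), RLE normalization, no low-count filter, a filter of at least 50 counts in 4 libraries, fits of fewer groups, the replicate number as a block, the ribosomal protein share as a covariate, and leaving out wells.

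The comparison, gene lists and alternatives were chosen with earlier results of these data known. Named genes are PCSK5, GDF11, the genes called with all wells, those called without M452I replicate 4 or by DESeq2, the largest changes without overlap of wells, members of 46 gene lists (up to 2 with the smallest p per list) and cell type markers, with 3 CPM or more in the higher group's mean for calls beyond the main test. List members named outside this rule (SMAD7, SKIL, FN1, THBS1, INHBA, IL1A, IL18, TGFBR1, ERBB3, NOTCH2, JAG1, CRIM1, ACVR2B, MYL6, MYL12A, MYL12B, KRT6A, KRT6B, KRT16) were chosen after their values were seen. Of these, the MYL and KRT genes were not carried through the alternatives. Not every gene taken by the rule is described. Of the 64 genes carried through the alternatives, 10 share exon bases with a tested gene on the opposite strand and 0 on the same strand.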

Additional observations from a re-analysis of the deposited data

Results flagged for a closer look

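In each group of 4 wells, a single value far from the other 3 was sought for the 64 genes followed through the alternatives, 128 tests of which chance flags about 1 in 20. It was found in 14, and 11 of these were M452I replicate 4. Several of these genes were taken up because that well differed in them, so the 11 cannot be read against the chance share. High in that well were TP63 at 47.5 CPM (others 15.4 to 17.5), INHBA at 665 CPM (341 to 352), THBS1 at 628 CPM (135 to 176) and FN1 at 99.0 CPM (51.5 to 59.2). So were MKI67 at 67.1 CPM (49.6 to 52.4), PROM2 at 7.69 CPM (3.22 to 3.77) and ANPEP at 41.4 CPM (24.6 to 27.2). MT-ND6 was high there too, at 257 CPM (180 to 186). IL18 was low at 617 CPM (931 to 946), as were KRT8 at 277 CPM (667 to 742) and RPS14 at 1921 CPM (3379.5 to 3569). Outside that well, TNC was low in M452I replicate 1 at 1.20 CPM (2.35 to 2.48), SMPD4BP was high in M452I replicate 2 at 4.95 CPM (3.39 to 3.64), and TOP2A was high in WT replicate 4 at 164 CPM (147 to 148).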

How the results depend on the processing

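The count of called genes was 4 with all wells. It was 30 with DESeq2, 41 with ribosomal protein share as covariate, 0 in the fit of the 4 and 4 wells alone by edgeR (879 at an unadjusted p under 0.05), 640 without M452I replicate 4 and T288P replicate 1, 794 in the 2 groups without M452I replicate 4, 838 with DESeq2 without that well (where PADI2 and SMPD4BP had no adjusted p), and 325 with limma-voom and library weights. Leaving out 1 well gave 1 to 9, with 1 without WT replicate 2, 2 without WT replicate 4, 6 without WT replicate 3 and 9 without M452I replicate 4. It was 3 to 6 with limma-voom, RLE normalization, either filter or the 12 wells without added GDF11. Higher genes were 2 of 4 calls in the main test, and their share was 23.3% with DESeq2, 33.3% with RLE normalization, 62.2% among the 794 and 78.4% among the 640. The cause of these differences was not tested, except that fewer wells entered some fits.

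The replicate numbers did not pair the wells: deviations of same-numbered M452I and WT wells correlated at -0.04, 0.01, -0.11 and -0.20. With the replicate block 3 genes were called, and IL1B was lost (edgeR adjusted p = 0.0957). PCSK5 was not called under any alternative. Its log2 fold change was -0.58 to -0.04 with 1 well left out, and 0.20 with ribosomal protein share as covariate. IL1B also lost its call with RLE normalization (edgeR adjusted p = 0.0563), the stricter filter (0.0593) and the 12 wells without added GDF11 (0.204).

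Signs turned for genes that were not called. GDF11 was at 0.15 with the ribosomal protein share and at -0.15 to 0.18 with 1 well left out (0.011 and 0.091 without M452I replicates 2 and 3). Without M452I replicate 4, in the 3 fits that omit it, KRT8 was at 0.048, 0.048 and 0.027, TP63 at -0.22, -0.22 and -0.24, INHBA at -0.14, -0.14 and -0.16, and THBS1 at -0.67, -0.67 and -0.69. THBS1 was also at -0.16 with limma-voom and -0.068 with the replicate block. With any 1 well left out, KRT8 was at -0.31 to 0.048, TP63 at -0.22 to 0.52, INHBA at -0.14 to 0.25 and THBS1 at -0.67 to 0.35. In all, 19 of 1215 values turned, 17 called values lost the call and 97 gained one. Of 779 list medians, 22 moved by 1 SD of the M452I wells or more. That SD includes M452I replicate 4, which widens it in lists where that well stands apart. The count therefore does not show that the medians were stable. For the ribosomal protein list, the median went from 0.21 to 0.375 without replicate 4 and still counted as unmoved. At depths of 29.7 M counts and more, DESeq2 still gave no adjusted p to TNC and TNFRSF11A, which were at 0.917 to 4.36 CPM.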

Other observations

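ACVR2B, a type II receptor for activins and GDF11, had 13.4 to 15.3 CPM in WT and 12.9, 12.3, 1.56 and 15.3 CPM in M452I replicates 1 to 4. The low value stood in replicate 3 alone, and the gene was not called (edgeR adjusted p = 0.860).

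In several lists outside the comparisons above M452I replicate 4 lay below all other wells. The median log2 level of 22 unfolded protein response genes, relative to the WT mean, was 0.16, 0.19 and 0.13 in M452I replicates 1 to 3 and -0.51 in replicate 4, with WT wells from -0.16 to 0.09. For 12 HLA class I genes it was 0.20, 0.12 and 0.25 in those wells, -0.33 in replicate 4 and -0.08 to 0.09 in WT. For 28 cholesterol and fatty acid synthesis genes replicates 1 to 3, at 0.05, 0.08 and -0.01, were not all above the -0.12 to 0.05 of WT, and replicate 4 was at -0.38. With all wells, edgeR and DESeq2 called none of these 62 genes. An unadjusted p under 0.05 was reached by 2 synthesis genes, against 6.3% of all genes. Among 22 genes of the NRF2 response to oxidants, DESeq2 called 1 lower, ABCC3, against 0.137% of all genes. ABCC3 had 76.9 to 94.1 CPM in WT and 59.8 to 76.6 CPM in M452I. Of 20 interferon response genes, none was called by either tool, and the median log2 fold change was -0.03. An unadjusted p under 0.05 was reached by 2 of the 20, 1 higher and 1 lower, against 6.3% of all genes.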
